A study of Mus musculus with 8 samples.

Results

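The cells described here are CD4 T cells of mouse spleen that held Il4 mRNA and in which fewer than 2 of 5 genes of follicular helper T (Tfh) cells were read. They are called non-Tfh by that rule alone, and genes of the Tfh list outside it are compared below. A cell was counted if it had more than 100 genes, at most 10% mitochondrial UMIs (unique molecular identifiers, each standing for 1 captured mRNA), at least 2 UMIs of Cd3d, Cd3e and Cd3g together, at most 1 of Cd79a and Ms4a1 together, at least 1 of Cd4, and none of Cd8a or Cd8b1. Within this CD4 gate it needed at least 1 Il4 UMI and a UMI of fewer than 2 of the 5 Tfh genes Cxcr5, Pdcd1, Bcl6, Il21 and Tox2. Selected on these measured values, the Il4+ non-Tfh cells numbered 211 of the 4451 cells in the gate, of 42183 cells in the 4 libraries of total splenocytes and of 83704 cells in all 8 libraries. They were 51 and 126 cells in cKO total libraries 1 and 2, and 13 and 21 cells in control total libraries 1 and 2. The rule itself used Il4 and the gate genes, so their values are given as a description with no test.

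Single-cell 3′ RNA was measured in total splenocytes of 2-month-old mice on the C57BL/6J background. The cKO mice were Eif3e fl/fl Cγ1Cre Rosa26-YFP LSL, and the control mice carried Cγ1Cre and the YFP reporter. Cγ1Cre is switched on in B cells once they are activated, so its target is a cell other than those described here. In the Il4+ non-Tfh cells Eif3e, coding for part of a translation initiation factor, was read at 228 and 259 CPM (UMIs of a gene in the summed cells, scaled to a total of 1000000) in cKO and at 245 and 321 CPM in control (-0.23 ± 0.34, adjusted p = 0.844 by edgeR). Each library pooled cells of 2 to 3 mice, with 1 library per genotype and sort in each of 2 batches, and sorted YFP+ libraries served only as a side check.

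Interleukin-4, the product of Il4, is the cytokine through which CD4 T cells drive B cells to switch antibody class and to raise MHC class II. In the spleen Tfh cells are a main source, and type 2 helper cells, natural killer T cells (marked by the transcription factor PLZF, encoded by Zbtb16) and basophils are others. In T cells, receptor signalling acts on the Il4 promoter through NFAT, while GATA3 and MAF favour Il4 transcription.

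Il4 lies on chromosome 11 (GRCm38.p6, 53612460 to 53618665, minus strand), and Il13, encoding a related type 2 cytokine, starts 16037 bases away on the same strand. The 250 bases before a RefSeq start site of each gene are shown because Il4 defined these cells while Il13 was nearly unread in them. For Il4, with 2 start sites listed, the most 5′ one was used. The windows are chr11:53618666-53618915 and chr11:53634703-53634952, each given 5′ to 3′ on the minus strand, with every GGAAA or TTTCC (the NFAT core on either strand) in capitals.
Il4: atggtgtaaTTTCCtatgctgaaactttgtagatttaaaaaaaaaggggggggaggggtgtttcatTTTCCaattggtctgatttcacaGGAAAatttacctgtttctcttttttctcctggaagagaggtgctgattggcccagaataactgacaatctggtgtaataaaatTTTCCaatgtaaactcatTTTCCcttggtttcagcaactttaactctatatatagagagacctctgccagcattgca
Il13: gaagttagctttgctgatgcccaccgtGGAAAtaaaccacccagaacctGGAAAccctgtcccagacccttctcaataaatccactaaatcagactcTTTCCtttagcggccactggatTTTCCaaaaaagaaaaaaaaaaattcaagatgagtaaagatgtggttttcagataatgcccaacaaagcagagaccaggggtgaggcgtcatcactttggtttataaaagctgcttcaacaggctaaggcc
The core occurred 5 times before Il4 and 4 times before Il13. Of 32851 windows of this length, 55.6% held at least 1 copy, 1.59% held 4 or more and 0.39% held 5 or more. A match of 5 letters is a description and not a bound site.

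In cKO total 1, 51 of 735 non-Tfh gate cells held an Il4 UMI, or 6.94% (95% exact Clopper-Pearson interval 5.21 to 9.02%). In cKO total 2 it was 126 of 852, or 14.8% (12.5 to 17.4%). The control libraries had 13 of 916, or 1.42% (0.758 to 2.41%), and 21 of 791, or 2.65% (1.65 to 4.03%). Both cKO libraries thus lay above both controls, and the cKO libraries differed from each other beyond counting error, which is all these intervals cover. B-lineage cells, which should lack Il4 mRNA, held a UMI in 0.412% and 1.14% of cKO cells and in 0.109% and 0.101% of control cells. Their median depths were 5705, 6280, 5869.5 and 4646 UMIs, against 5867, 5951.5, 7947 and 6121 UMIs in the Il4+ non-Tfh cells. The Il4- non-Tfh cells, most of the cells these shares are taken over, had medians of 6408.5, 6667.5, 7214 and 5895.5 UMIs. After every cell was thinned to 3000 UMIs the non-Tfh shares were 4.64% and 8.15% in cKO and 1.00% and 2.21% in control, and the B-lineage shares were 0.160%, 0.383%, 0.0380% and 0.0309%. The thinning left out 24, 30, 17 and 22 shallower gate cells.

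Many of these cells carried little Il4. A single Il4 UMI was read in 26 of 51 and 71 of 126 cKO cells and in 6 of 13 and 11 of 21 control cells, while the highest cell in each library had 19, 28, 5 and 97 UMIs. In the cKO libraries the Il4+ non-Tfh cells held 10% and 6.88% of the Il4 UMIs of the gate. In the control libraries they held 82.9% and 97.8%, but of only 35 and 138 Il4 UMIs, against 1160 and 4463 in cKO. In control total 2, 1 cell held 97 of the 138.

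In cKO the Il4+ share was higher with more Tfh genes read, and the rule cut through this gradient. In cKO total 1 it was 4.21% of cells with 0 Tfh genes, 10.7% with 1, 40.9% with 2, 61.7% with 3, 76.3% with 4 and 81.8% with 5. In cKO total 2 it was 11.3%, 20.4%, 51.4%, 76.7%, 94.0% and 93.2%. Just inside the rule, 33 and 66 Il4+ cKO cells showed 1 Tfh gene, and just outside it 63 and 114 showed 2. In control total 1 the share was 0.829%, 2.56%, 3.70%, 9.09% (2 of 22 cells) and 6.25% (1 of 16 cells) with 0 to 4 genes, and in control total 2 it was 1.72%, 5.24% and 3.77% with 0 to 2 genes and 0 of 11 cells with 3. The control shares with 2 or more genes rest on at most 2 Il4+ cells each. Whether a cell with 1 Tfh UMI is a Tfh cell whose other transcripts were missed was not tested.

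**Figure D1:**
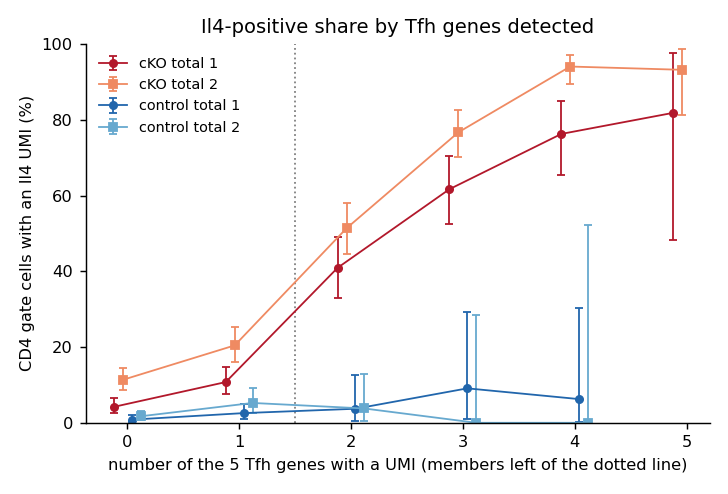
Share of CD4 gate cells with an Il4 UMI (y axis, percent, with 95% exact binomial intervals) against the number of the 5 Tfh genes read (x axis), for each total library, with points of fewer than 5 cells left out. The cKO libraries climb from 4.21% and 11.3% at 0 genes to 81.8% and 93.2% at 5, while the control libraries stay below 10%.

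The label was checked against the marker lists. All 11 CD4 T cell markers were read in the Il4+ non-Tfh cells of each library, but 5 of them were used by the rule and check nothing. None of the other 6 passed the test between the Il4+ and Il4- non-Tfh cells of the cKO, with a median log2 fold of 0.03 and 4 of 6 above 0. Trac, the constant region of the T cell receptor α chain, stood at 863 and 1433 CPM against 745 and 995 CPM, and Lat, an adaptor of receptor signalling, at 228 and 316 CPM against 348 and 356 CPM. Of 9 basophil and mast cell markers, Mcpt8, Fcer1a, Cpa3, Ms4a2, Gata2 and Prss34 were at 0 in the Il4+ cells of all 4 libraries. Hdc, the histamine-forming enzyme, was read in 4 of 51 and 3 of 126 cKO cells and in 1 of 13 and 2 of 21 control cells, Cd200r3 in 2 cells and Kit in 1 cell of cKO total 2. The summed list was at 13.9 and 16.0 CPM in cKO and at 8.75 and 14.9 CPM in control. Hdc was higher in the Il4+ than the Il4- non-Tfh cells of the cKO (adjusted p = 0.0466 by edgeR and 0.38 by DESeq2), and the part of such cells in the results was not tested. B cell markers were read at 971 and 1410 CPM summed over 9 genes in the cKO cells and at 870 and 1138 CPM in Il4- non-Tfh cells, and myeloid markers at 125 and 166 CPM against 118 and 104 CPM. No gene of the B cell or myeloid list passed the test between these fractions, and their part in the results was not tested beyond the stricter B cell gate given with the alternatives. Between 51 and 102 barcodes were shared by any pair of the 8 libraries, and none by Il4+ non-Tfh cells of different libraries. Xist, read from the inactive X of female cells, was at 663 CPM in the Il4+ cells of cKO total 1 and at 0 in those of the other 3, and the sex of the pooled mice is not given in the labels, so an effect of sex cannot be told apart from the pool.

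The Il4+ non-Tfh cells were of several kinds, and the kinds differed between genotypes. A Zbtb16 UMI was found in 13 of 13 and 18 of 21 control cells, but in 6 of 51 and 10 of 126 cKO cells. Per 1000 non-Tfh gate cells, Zbtb16-positive Il4+ cells numbered 8.16 and 11.7 in cKO and 14.2 and 22.8 in control. Il4+ cells without Zbtb16 numbered 45 and 116 in cKO and 0 and 3 in control, where 0 of 894 such cells allows a share of up to 0.336% by a limit of 3 counts of the total, with an exact 95% upper bound of 0.412%. Within cells carrying a Zbtb16 UMI, Il4 was read in 26.1% and 52.6% of cKO cells and in 59.1% and 60.0% of control cells, and the 95% intervals of all 4 overlap. The excess in cKO thus lay among cells without a Zbtb16 UMI. This split was chosen after its values were seen and was not tested.

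Foxp3, the factor that defines regulatory T cells, was read in 10 of 45 and 42 of 116 cKO Il4+ cells without Zbtb16, and in no control Il4+ cell. Among all Foxp3-positive non-Tfh cells, 9.35% (95% interval 4.57 to 16.5%) and 19.0% (14.1 to 24.8%) of cKO cells held an Il4 UMI, both above the B-lineage share and the CD8 T cell share (0.398% and 2.58%) of their library. In control it was 0 of 62 and 0 of 51 cells, which allows up to 4.84% and 5.88% by the same limit of 3 counts, with exact upper bounds of 5.78% and 6.98%. The remaining 35 and 74 cKO cells showed neither Zbtb16 nor Foxp3. A UMI of Il1rl1, Klrg1 or Areg was found in 22 of 51 and 62 of 126 cKO cells, and in 0 of 13 and 0 of 21 control cells, which by that limit allows up to 23.1% and 14.3%. Among Il4- non-Tfh cells such a UMI was likewise more frequent in both cKO libraries, in 108 of 684 and 203 of 726 cells against 30 of 903 and 27 of 770 cells in control.

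**Figure D2:**
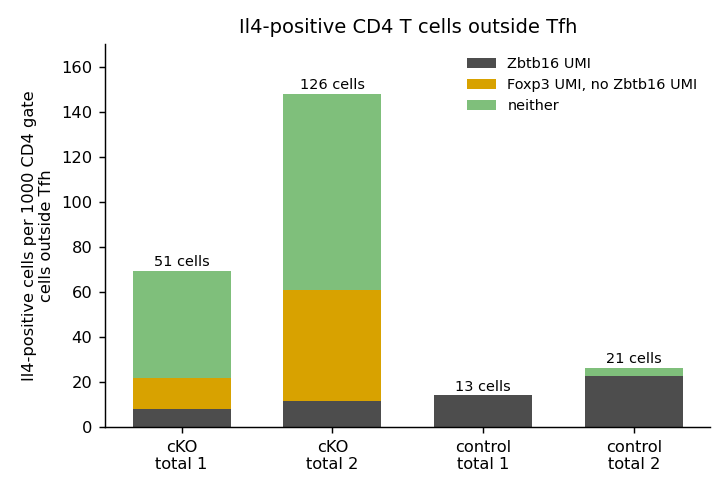
Il4+ non-Tfh cells per 1000 non-Tfh CD4 gate cells (y axis) in each total library, stacked by the presence of a Zbtb16 UMI, of a Foxp3 UMI without Zbtb16, or of neither. The control bars are made up of Zbtb16-positive cells except for 3 cells in control total 2.

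The 3 kinds of cKO cell carried different genes. Ccl5, a chemokine of cytotoxic and memory T cells, was at 388.5 and 1844 CPM in Zbtb16-positive cells, at 0 and 10.3 CPM in Foxp3-positive cells and at 4.61 and 88.9 CPM in the others. Nkg7, a cytotoxic granule protein, followed the same order with 413 and 583 CPM, 0 and 3.44 CPM, and 0 and 53.3 CPM. Il1rl1, the receptor for interleukin-33, was at 0 in Zbtb16-positive cells, at 147 and 148 CPM in Foxp3-positive cells and at 23.0 and 64.5 CPM in the others. Each of these genes was highest in the same kind of cell in both libraries.

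Sostdc1, a secreted BMP and Wnt antagonist made by Tfh cells, stood at 401 and 342 CPM in the cells with neither factor, at 0 and 20.6 CPM in Foxp3-positive cells and at 0 in Zbtb16-positive cells. Tnfsf8, the CD30 ligand, was at 728 and 564.5 CPM, at 147 and 155 CPM, and at 0 and 27.1 CPM in the same order. Areg, the epidermal growth factor family ligand amphiregulin, was at 175 and 262 CPM in the cells with neither factor, at 157 and 454 CPM in Foxp3-positive cells and at 121 and 0 CPM in Zbtb16-positive cells. Il4 itself was 704 and 651 CPM in Zbtb16-positive cells, 147 and 210 CPM in Foxp3-positive cells and 332 and 440 CPM in the others. The Sostdc1 signal therefore came mostly from the cells with neither factor. By number of Tfh genes Sostdc1 was at 271 and 72.1 CPM with 0, 227 and 310 CPM with 1, and 697 and 1011 CPM in Il4+ cells with 2. The levels by kind rest on 6 and 10 Zbtb16-positive cells, 10 and 42 Foxp3-positive cells, and 35 and 74 cells with neither factor. Those with 0, 1 and 2 Tfh genes rest on 18 and 60, 33 and 66, and 63 and 114 cells. All of them are descriptions.

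**Figure D3:**
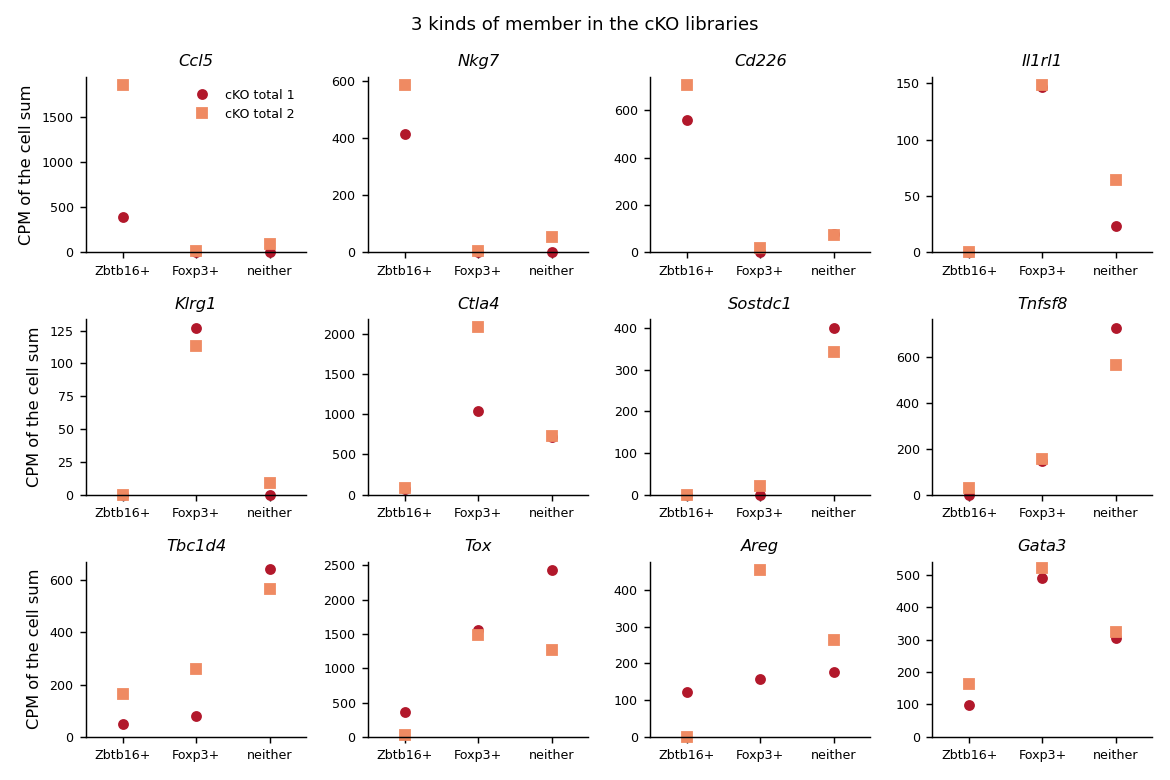
Level of 12 genes (y axis, CPM of the summed cells, linear and from 0) in the 3 kinds of Il4+ non-Tfh cell (x axis) of the 2 cKO total libraries, 1 point per library. Ccl5, Nkg7 and Cd226 are highest in Zbtb16-positive cells, Il1rl1, Klrg1 and Ctla4 in Foxp3-positive cells, and Sostdc1, Tnfsf8 and Tbc1d4 in the others.

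The first comparison asked how the Il4+ cells of the cKO differed from Il4- non-Tfh cells of the same 2 libraries (684 and 726 cells). Of 10234 genes tested, 342 were higher (3.34%) and 357 lower (3.49%), or 699 in all (6.83%), at an adjusted p under 0.05 in edgeR's quasi-likelihood test with the library as a block, and DESeq2 called 118 (1.15%) and 164 (1.6%), with 279 genes (2.73%) called by both. All 699 moved the same way in both libraries, which a test blocked on these same 2 libraries favours, so it is no separate support. In the Il4+ cells 10 of 12 naive cell genes were lower (9 with DESeq2). Of the Tfh genes outside the rule 8 of 14 were higher and Tcf7 was lower (6 and 0 with DESeq2). Of 17 activation genes 10 were higher (4 with DESeq2), and of 11 B cell helper genes 7 (5 with DESeq2). Log2 fold changes below are followed by their SE.

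Sostdc1 had the smallest adjusted p of the higher genes. It was at 241 and 196 CPM in the Il4+ cells and at 9.91 and 13.2 CPM in the Il4- cells, a log2 fold change of 3.99 ± 0.22 (adjusted p = 2.05e-05). It was read in 13 of 51 and 24 of 126 Il4+ cells, against 1.46% and 3.03% of Il4- cells, so its sum rests on a minority. Tbc1d4, a regulator of glucose transporter trafficking, rose from 115 and 81.6 CPM to 413 and 419 CPM (1.97 ± 0.16, adjusted p = 0.000114). Tox, a transcription factor of Tfh and persistently stimulated T cells, was already high and rose from 747 and 504 CPM to 1948 and 1232 CPM (1.19 ± 0.09). Of the 14 tested Tfh genes that the rule did not use, 8 rose and 1 fell (6 and 0 with DESeq2), with a median of 1.13, against -0.01 over all genes. They included Sh2d1a (SAP, an adaptor needed for T cell help, 1.31 ± 0.14) and Cd200 (1.78 ± 0.25), while Tcf7, a factor shared by naive and Tfh cells, fell by 0.57 on the log2 scale.

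Of 12 tested type 2 cytokines, receptors and regulators, 6 rose, 1 fell and 5 were not called (3 and 1 called with DESeq2), with a median of 1.12. Gata3 was at 333 and 379 CPM against 131 and 162 CPM (1.14 ± 0.13, adjusted p = 0.000543), and Maf at 516 and 498 CPM against 146 and 226 CPM (1.31 ± 0.16, adjusted p = 0.00105). Pparg, Ccr4, Nfil3 and Areg were the other 4 that rose. Il4ra, the receptor chain for interleukin-4 itself, fell by 2.42 on the log2 scale, from 130 and 110 CPM to 8.33 and 31.9 CPM (adjusted p = 0.00656). Il13 was read in 1 of 51 and 2 of 126 Il4+ cells, and Il5, Il9, Il3 and Il24 were too low to be tested. Il1rl1 did not pass (0.27 ± 0.20, adjusted p = 0.576), but with the Il4+ cells restricted to at least 2 Il4 UMIs it was lower (-1.53, adjusted p = 0.00327).

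Of 12 tested genes of naive and recirculating cells, 10 fell and none rose (9 fell with DESeq2), with a median of -1.52. Ccr7, the receptor that brings naive T cells into T cell zones, was at 36.1 and 31.9 CPM against 234 and 201 CPM (-2.78 ± 0.19, adjusted p = 6.08e-05). Igfbp4, which marks naive CD4 T cells, was at 13.9 and 2.46 CPM against 186 and 135 CPM (-4.61 ± 0.35). Lef1, Klf2 and S1pr1 also fell. The other lower genes with the smallest adjusted p were Sidt1, Cmah, Grap2, Txnip, Ms4a4b and Foxn3, with log2 fold changes of -2.40, -2.24, -2.14, -1.84, -1.50 and -1.18.

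Of 17 genes of receptor signalling and activation 10 rose and none fell (4 rose with DESeq2), among them Cd44 (1.02 ± 0.19), Nr4a3 (1.10 ± 0.13), Batf (1.15 ± 0.14) and Tnfrsf4, encoding OX40 (0.95 ± 0.14). Of 11 inhibitory or late activation genes 8 rose (5 with DESeq2), including Ctla4 (0.74 ± 0.10) and Cd160 (2.75 ± 0.47). Cd160 was carried mainly by Zbtb16-positive cells, which held 7 of its 8 UMIs in cKO total 1 and 29 of 40 in cKO total 2. Of 11 tested ligands and cytokines that act on B cells, 7 rose and none fell (5 rose with DESeq2). Tnfsf8 was at 480 and 370 CPM against 118 and 129 CPM (1.61 ± 0.15, adjusted p = 0.000201). Cd40lg, the ligand through which T cells license B cells, rose less, from 174 and 171 CPM to 250 and 323 CPM (0.60 ± 0.15, adjusted p = 0.0348). Tnfsf11, Tnf, Lif, Tgfb1 and Csf1 were the others. Of 14 cell cycle genes 0 passed, also with DESeq2, though 13 of them were above 0. Their median was 0.54, against -0.01 over all genes.

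Genes outside these lists also separated the fractions. Nav2 rose from 198 and 185 CPM to 808 and 553 CPM (1.65 ± 0.14), Tshz2 from 32.1 and 42.7 CPM to 208 and 176 CPM (2.17 ± 0.20), and Bcl2a1b, a survival factor of the Bcl2 family whose reads may be shared with its near-identical copies, from 128 and 199.6 CPM to 444 and 640 CPM (1.59 ± 0.13). Eea1, Chn2, Samsn1, Smco4 and Ikzf2 completed the 12 named higher genes, with log2 fold changes of 1.66, 1.83, 1.30, 1.34 and 1.11. Markers of other lymphocytes moved in the same comparison: 5 of 6 natural killer T-like genes rose (2 with DESeq2), Zbtb16 by 2.34 ± 0.42, with the summed list at 372 and 417 CPM against 152 and 170 CPM. Foxp3 did not pass (0.44 ± 0.19, adjusted p = 0.238). With cells holding a Zbtb16, Klrb1c, Trdc or Foxp3 UMI left out, 1168 genes were called, and Sostdc1 stood at 4.48. Without the library block 224 genes passed, 220 of them among the 699, and Tox (adjusted p = 0.0580), Ctla4 (0.343), Areg (0.461), Cd40lg (0.316) and Zbtb16 (0.425) were not among them.

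**Figure D4:**
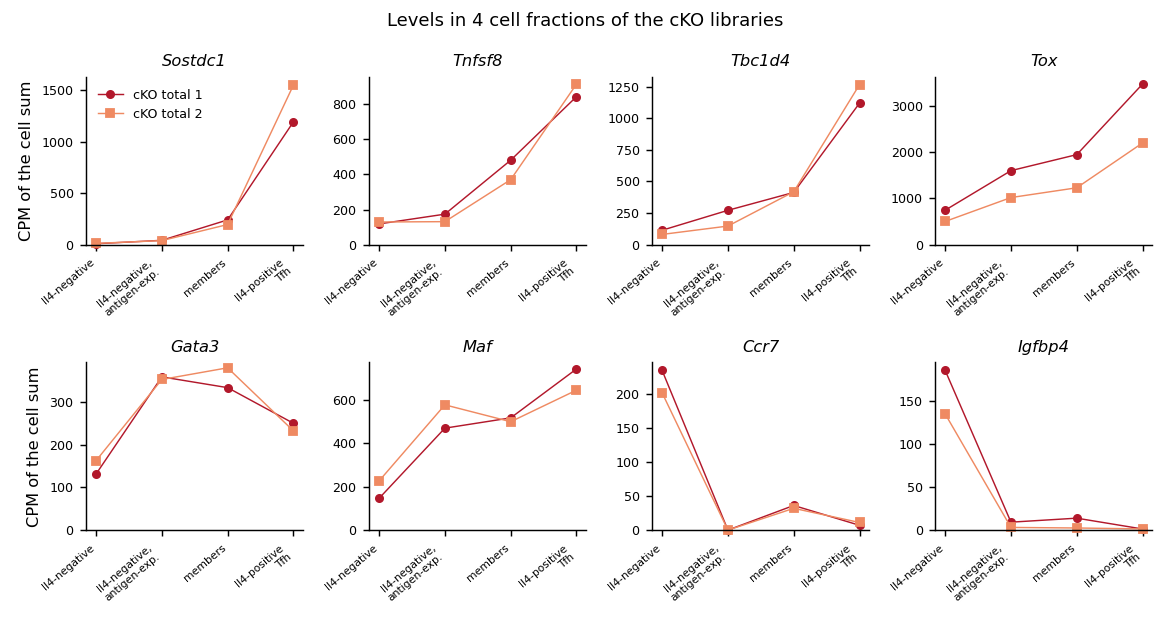
Level of 8 genes (y axis, CPM of the summed cells, linear and from 0) in 4 cell fractions (x axis) of the 2 cKO total libraries, joined by lines for each library, where members are the Il4+ non-Tfh cells. Sostdc1, Tnfsf8 and Tbc1d4 lie between the Il4- fractions and the Il4+ Tfh cells, and Ccr7 (which the antigen-experienced fraction lacks by definition) and Igfbp4 are high in the Il4- fraction.

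Since naive cell genes moved in that contrast, the Il4+ cells were also set against Il4- non-Tfh cells with a Cd44 UMI and no UMI of the naive cell markers used, Ccr7 among them (105 and 156 cKO cells, called antigen-experienced here). The Il4+ cells were not filtered on these genes, which were left out of the test, and 9 of 7761 genes passed (0.116%), 4 higher (0.0515%) and 5 lower (0.0644%). DESeq2 called 2 higher (0.0258%), Sostdc1 and Tnfsf8, which were also called by edgeR (0.0258%), and 0 lower, and 520 genes had an unadjusted p under 0.05 with edgeR.

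Sostdc1 was at 241 and 196 CPM in the Il4+ cells and 43.0 and 40.3 CPM in the antigen-experienced Il4- cells (2.33 ± 0.21, adjusted p = 0.000802). Tnfsf8 was at 480 and 370 CPM against 174 and 131 CPM (1.49 ± 0.16, adjusted p = 0.00221). For both genes the lower Il4+ library stood above both Il4- sums. 8030451A03Rik was also higher (2.76).

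The 5 lower genes were Penk (proenkephalin), Neb, Itgae (integrin αE), Klrg1 and Ifngr1. Penk was at 27.8 and 136 CPM against 89.2 and 503 CPM (-1.77 ± 0.19, adjusted p = 0.00221), Itgae at 44.4 and 71.2 CPM against 106 and 214 CPM, and Klrg1 at 36.1 and 45.4 CPM against 96.9 and 136 CPM. A Foxp3 UMI was found in 19.6% and 33.3% of the Il4+ cells but in 37.1% and 55.1% of the antigen-experienced Il4- cells. With Zbtb16-, Klrb1c-, Trdc- or Foxp3-positive cells left out, the adjusted p of Penk was 0.987, Klrg1 was not tested, and the other 7 genes still passed.

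Gata3 (333 and 379 CPM against 358 and 352 CPM, 0.04 ± 0.15) and Areg (164 and 307 CPM against 220 and 443 CPM, -0.45 ± 0.16) did not pass here, nor did any of 12 tested type 2 genes or 16 activation genes. Only 0.116% of all genes passed, so the lack of calls in lists of this size does not show equal levels. Il1rl1 was lower in both libraries, at 55.5 and 88.4 CPM against 126 and 199 CPM, with an adjusted p of 0.0879. The number of calls by edgeR varied. With both fractions restricted to 0 Tfh genes (18 and 60 Il4+ cells, 59 and 84 Il4- cells) 1 gene passed. It was Tnfsf8 (1.96, adjusted p = 0.00684) and not Sostdc1 (2.99, adjusted p = 0.787). Without the library block 1 gene passed, which was Sostdc1 (2.34, adjusted p = 0.00990) and not Tnfsf8 (1.49, adjusted p = 0.305). The count was 44 with depth-matched cells and 64 without the filter on low counts.

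The third comparison set the Il4+ non-Tfh cells against Il4+ Tfh cells of the cKO (207 and 461 cells), the other Il4+ cells of the gate. Of 8883 genes, 259 were higher (2.92%) and 222 lower (2.5%) in the non-Tfh cells, or 481 in all (5.41%). DESeq2 called 67 (0.754%) and 24 (0.27%), all 91 (1.02%) also called by edgeR. The groups were split on 5 Tfh genes, so genes that travel with them are set apart partly by the rule. The Tfh cells were deeper, with medians of 6708 and 7788 UMIs.

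Lower in the non-Tfh cells were 10 of 15 tested Tfh genes (4 with DESeq2), and 1 was higher. Sostdc1 was at 241 and 196 CPM against 1194 and 1551 CPM (-2.62 ± 0.19), Tbc1d4 at 413 and 419 CPM against 1119 and 1265 CPM (-1.48 ± 0.17), and Tnfsf8 at 480 and 370 CPM against 841 and 912 CPM (-1.03 ± 0.18). Sostdc1 did not pass once Tfh cells were matched by depth (-2.77, adjusted p = 0.0786), a match that in cKO total 2 left the Tfh cells at a median of 7084.5 UMIs against 5951.5. Vdr, the vitamin D receptor, was at 41.6 and 51.6 CPM against 176 and 241 CPM (-2.11 ± 0.24). Dgki, Npy, Dnase1l3, Slc22a15 and Itgb8 were the other named lower genes, between -1.45 and -2.22.

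Higher were genes of the Th1 list and genes of naive and recirculating cells. Of 9 tested Th1 genes 8 were higher (6 with DESeq2), with a median of 2.93, while Tbx21, Ifng, Gzmk and Eomes were not tested. Ccl5 was at 47.2 and 220 CPM against 4.48 and 15.9 CPM (3.60 ± 0.29), and Cxcr6 at 47.2 and 119 CPM against 10.2 and 10.9 CPM (2.93 ± 0.32). In cKO total 1 the Ccl5, Cxcr6 and Il12rb2 UMIs of the Il4+ cells numbered 16, 15 and 12 in the 6 Zbtb16-positive cells. They numbered 0, 1 and 0 in Foxp3-positive cells and 1, 1 and 0 in the others. Hopx and Il18r1 were read in all 3 kinds, with 9 and 3, 35 and 9, and 33 and 15 UMIs in the same order. As levels these were 219 and 72.8 CPM, 343 and 88.1 CPM, and 152 and 69.1 CPM. In cKO total 2 Il12rb2 was less confined to Zbtb16-positive cells, and Ccl5 was also read in the cells with neither factor, by the values given in other paragraphs. Id2, which restrains E proteins and opposes the Tfh program, was at 366 and 409 CPM against 62.1 and 77.7 CPM (2.49 ± 0.20, adjusted p = 2.62e-33). Il7r, the interleukin-7 receptor, was at 499.5 and 774 CPM against 209 and 171 CPM (1.78 ± 0.19). Of 11 tested naive and recirculation genes 7 were higher (5 with DESeq2), among them Klf2 (1.74 ± 0.19), and 1 was lower. Neb, Satb1, Fasl, Ms4a4b, Nkg7, Xcl1, Selplg and Pde3b were the other named higher genes, between 2.00 and 5.24.

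The Zbtb16-positive and Foxp3-positive kinds were visible here too. Zbtb16 was at 69.4 and 41.7 CPM against 0.640 and 2.96 CPM (4.04 ± 0.50), Foxp3 at 74.9 and 134 CPM against 26.9 and 19.6 CPM (2.26 ± 0.26), and Il1rl1 at 55.5 and 88.4 CPM against 8.96 and 6.38 CPM (3.18 ± 0.37). Gata3 was higher by less (0.61 ± 0.18, adjusted p = 0.0208 by edgeR and 0.749 by DESeq2). Without the cells holding Zbtb16, Klrb1c, Trdc or Foxp3 UMIs 319 genes passed, and Id2, Fasl, Il1rl1 and Sostdc1 were among them. With no B cell UMI allowed 162 passed, and without the library block 136, with Ccl5 (adjusted p = 0.766), Tnfsf8 (0.143) and Gata3 (0.634) not among them.

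The Il4+ non-Tfh cells of the cKO were last set against those of the control mice, a comparison added after the data were seen. The control sums hold only 13 and 21 cells and 248252 UMIs together. Of 4594 genes tested, 200 were higher (4.35%) and 178 lower (3.87%) in cKO by edgeR, or 378 in all (8.23%). DESeq2 called 86 (1.87%) and 89 (1.94%), with 174 (3.79%) called by both. With the batch as a replicate block edgeR called 600. Leaving out cKO total 1 gave 170 calls and leaving out cKO total 2 gave 185, with the lone remaining library assumed to vary like the others.

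In control the cells were high in genes of natural killer T and Th1 cells. All 6 tested genes of the natural killer T-like list were lower in cKO (5 with DESeq2), as were 9 of 11 Th1 genes (7 with DESeq2). Trav11, the variable segment of the invariant receptor, had no UMI in any of the 4 sums. It was also unread in the Il4- non-Tfh cells of every total library except control total 1, so its absence here says little. The γ chain constant genes Tcrg-C1, Tcrg-C2 and Tcrg-C4 were lower in cKO too, while Trdc, the δ chain constant gene, was at 0 in all 4 libraries. Reads may be shared between the near-identical Tcrg-C1 and Tcrg-C2. Zbtb16 was at 69.4 and 41.7 CPM in cKO against 499 and 314 CPM in control (-2.82 ± 0.39, adjusted p = 1.08e-05). Id2 was at 366 and 409 CPM against 2083 and 2687 CPM (-2.62 ± 0.32), Nkg7 at 47.2 and 83.5 CPM against 516 and 612 CPM (-2.97 ± 0.37), and Ifng, encoding interferon-γ, at 8.33 and 44.2 CPM against 158 and 537 CPM (-3.33 ± 0.63, adjusted p = 0.00359 by edgeR and 0.0852 by DESeq2). Il12rb2, Cd226, Atp8a2, Ccr9, Gcnt2 and Mctp2 were the other lower genes the rule named. The naming rule kept only genes whose cKO and control values did not overlap, so for Id2 and Nkg7 this holds by selection. Zbtb16 and Ifng, taken from the lists, did not overlap either. The share of all genes without overlap was not counted, so this is a description and no support. The 3 control cells without a Zbtb16 UMI also read Ccl5 at 2940 CPM and Id2 at 2385 CPM.

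Genes higher in cKO included those read mainly in the Foxp3-positive cells and in the cells with neither factor. Sostdc1, Areg, Nrp1, Tnfrsf4, Foxp3 and Il1rl1 had no UMI in either control sum. Set against a floor of 3 counts over both control libraries, they were at least 17.4-fold, 21.8-fold, 23.0-fold, 37.1-fold, 9.58-fold and 6.48-fold higher. Nav2 was at 808 and 553 CPM against 8.75 and 0 CPM and Tnfsf8 at 480 and 370 CPM against 8.75 and 0 CPM, where the control value is a single UMI. Ctla4 was at 733 and 1158 CPM against 43.8 and 44.8 CPM (4.24 ± 0.47, adjusted p = 1.04e-06), and Tox at 1948 and 1232 CPM against 131 and 172 CPM (3.31 ± 0.38). Of 11 tested Tfh genes outside the rule 9 were higher (4 with DESeq2), and of 9 inhibitory genes 8 were higher and 1 lower (5 and 1 with DESeq2). These counts include Sostdc1 and Nrp1, which had no control UMI and passed the low-count filter through the cKO sums alone. Such genes could only be called higher, so the counts are descriptions. Gata3 was higher by less (1.34 ± 0.38, adjusted p = 0.0202 by edgeR and 0.10 by DESeq2). Vim (4.32 ± 0.58) and Gpr183 (2.99 ± 0.43) were also higher, and Tshz2 and Slc24a3 were at 0 in control and at least 15.4-fold and 15.9-fold higher. The contrast of Il4+ with Il4- non-Tfh cells differed between genotypes for 431 of 10830 genes, 259 higher in cKO (2.39%) and 172 lower (1.59%), by an interaction test also added after the data were seen. How far the change in kinds of cell accounts for these differences was not tested.

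**Figure D5:**
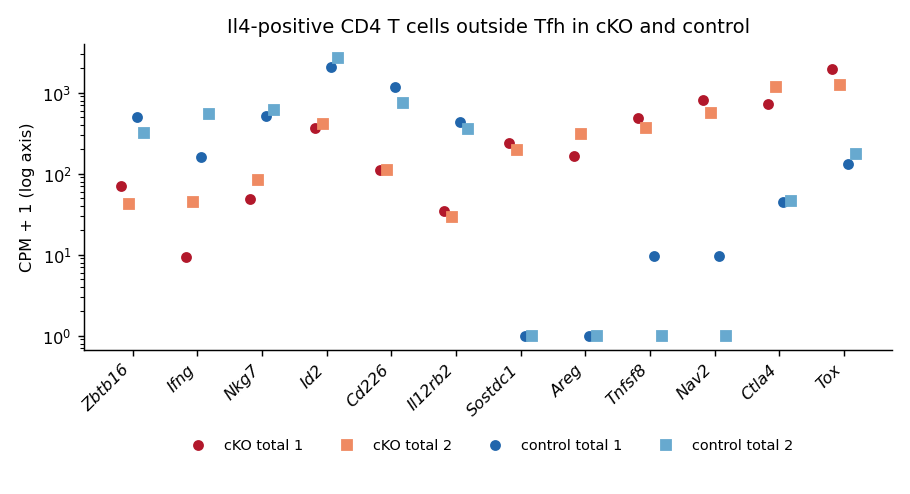
Level of 12 genes in the Il4+ non-Tfh cells of each total library (y axis, CPM + 1 on a log axis, 1 point per library). The first 6 genes lie higher in both control libraries and the last 6 higher in both cKO libraries, and points at the lowest level have no UMI. Apart from Zbtb16 and Ifng, the genes were named by a rule that kept only those without overlap.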

How the data were processed

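The deposited matrices hold whole-number UMI counts per gene and cell, which the authors made from a droplet 3′ kit (SeekOne DD), with no normalization. The submitters' processing notes name GRCm38 and mm10, while no source used here gives the aligner or annotation. In the files of 32285 genes, library totals ran from 71894780 to 105224903 UMIs. Groups, replicates and batches came from the labels. Members, gene lists and tests were chosen with earlier results of these data known.

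UMI counts were summed per library and cell fraction and tested with edgeR 4.0.16 (quasi-likelihood, TMM, filterByExpr, robust, prior count of 2; R 4.3.3), with Benjamini-Hochberg adjustment over all genes tested and gate genes left out (for the antigen-experienced comparison also Cd44, Ccr7 and the rest of its gate). DESeq2 1.42.0 was the alternative tool. Both sums of a library come from the same pooled mice, so the library was a block within cKO. The labels give each replicate number as a shared batch, which pairs the genotypes. Within cKO, p-values measure how the difference between 2 fractions varied over 2 pools, with the spread between pools removed by the block. Between genotypes they measure the spread between 2 pools per genotype. For the interaction they measure the spread of within-library differences in both genotypes. In each case the spread was shared over genes, and cells were never replicates. The 12 higher and 8 lower genes with the smallest adjusted p were named, besides list genes, leaving out receptor segments, Gm, Rik, mitochondrial and ribosomal genes. They had to go the same way in both cKO libraries or, between genotypes, show no overlap of cKO with control values. 8030451A03Rik falls outside the naming rule and was named after its values were seen. A gate gene and a called gene of that comparison are not reported here. Levels are CPM of the summed cells. No doublet caller was run. Alternatives changed the scaling (RLE), the low-count filter, the block, the Il4, B cell and Tfh gates, the depth of the comparison cells and the libraries used. Simulated counts with known changes were used to test the fit. Promoter windows are RefSeq sequences of GRCm38.p6.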

Additional observations from a re-analysis of the deposited data

Results flagged for a closer look

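Listed here are 14 named genes for which the contrast of Il4+ with Il4- non-Tfh cells differed between genotypes. The test was of the interaction and was added after the data were seen (edgeR, library as a block, adjusted over 10830 genes, of which 2.39% were called higher and 1.59% lower). A gene was listed only if both cKO libraries went 1 way and both control libraries the other. Named genes that differed without this pattern were left out, so the directions given here follow from the selection. Apart from Selplg, each was higher in Il4+ cells in both cKO libraries and lower in both control libraries. Selplg, encoding the selectin ligand PSGL-1, was lower in both cKO libraries and higher in both control libraries (adjusted p = 1.28e-06). For the others the adjusted p of the interaction was 8.03e-38 for Tox, 6.87e-30 for Ctla4, 1.52e-21 for Tnfsf8, 7.16e-09 for Izumo1r, 1.11e-07 for Tnfrsf4, 3.12e-07 for Nrp1 and 5.02e-07 for Nav2. It was 6.67e-06 for Slamf6, 0.00145 for Areg, 0.002 for Tnfsf11, 0.00206 for Foxp3, 0.00372 for Smco4 and 0.00395 for Tshz2. Areg, Nrp1, Tnfrsf4, Foxp3 and Tshz2 had no UMI in either control Il4+ sum, and Nav2 and Tnfsf8 had 1 UMI over both, so their lower control values are set by 13 and 21 cells at or near a count of 0. Zbtb16-positive cells made up 11.8% and 7.94% of the Il4+ cells in cKO and 100% and 85.7% in control, and their part in these differences was not tested.

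Il4+ non-Tfh cells also appeared in libraries outside the comparisons. In cKO YFP+ library 1, 7 of 107 non-Tfh gate cells held an Il4 UMI, or 6.54% (95% exact interval 2.67 to 13.0%), against 1 of 99 in control YFP+ library 1, or 1.01% (0.0256 to 5.50%). These intervals overlap. The second pair held 0 of 12 and 0 of 15 cells.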

How the results depend on the processing

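The counts of called genes moved with the fit. Il4+ against Il4- cells gave 699 calls, 282 with DESeq2, 224 with no replicate block and 1168 without Zbtb16-, Klrb1c-, Trdc- or Foxp3-positive cells. Of the 699, 279 were also called by DESeq2. Against Il4+ Tfh cells 481 became 91 with DESeq2, 136 with no replicate block, 162 with no B cell UMI and 319 without those positive cells. Against antigen-experienced cells 9 became 1 with 0 Tfh genes, 2 with DESeq2, 3 with at least 2 Il4 UMIs, 1 with no replicate block, 21 with no B cell UMI, 44 with matched cells, 64 with no filter and 52 without those positive cells. Between genotypes 378 became 175 with DESeq2, 600 with the replicate block and 170 to 496 without 1 library. The cause of these moves was not tested.

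With at least 2 Il4 UMIs, the Il4+ share was 4.93% in cKO (10.9%) and 1.01% in control (2.04%). Il1rl1 then turned from 0.27 to -1.53 on the log2 scale (adjusted p = 0.00327) between Il4+ and Il4- cells. Without 1 library, the share with at least 1 UMI ran from 6.94% to 14.8% and from 1.42% to 2.65%. Against antigen-experienced cells Gata3, not called, turned to -0.012 with no B cell UMI, -0.073 with at least 2 Il4 UMIs, -0.0090 with matched cells and -0.082 without the positive cells, and Areg to 0.052 without them. Without 1 library, the comparisons within cKO leave no spread to test, and 699 of 699, 480 and 470 of 481 and 9 of 9 called genes kept their direction. The genes were called from these same libraries, so this agreement is no separate support.

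Depth limits these results through the 13 and 21 control cells and through genes read in few cells, where absence of a UMI does not show absence of expression.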

Other observations

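Of 11 homing receptors tested, 6 were higher than in Il4+ Tfh cells and 1 was lower (4 and 0 with DESeq2), where 2.92% and 2.5% of all genes were. Ccr2, an inflammatory chemokine receptor, was at 25 and 40.5 CPM against 0 and 0.911 CPM, and Itga4, an integrin chain, at 669 and 379 CPM against 295 and 226 CPM. Cxcr4, the receptor for CXCL12, was the lower gene, at 167 and 274 CPM against 310 and 376 CPM. Against Il4- cells 2 of 13 were higher (Ccr4 and Itgb1) and 1 was lower (Selplg), where 3.34% and 3.49% of all genes were, and 10 did not pass. DESeq2 called 0 higher and 1 lower.

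Of the regulatory T cell genes, Ikzf2 alone rose of 6 tested against Il4- cells, and Foxp3, Il2ra and Lrrc32 were higher than in Il4+ Tfh cells, of 5 tested (1 and 2 higher with DESeq2), where 3.34% and 2.92% of all genes were higher. Of 12 Th1 genes 2 were higher (Ifng and Il12rb2) and Eomes was lower against Il4- cells, and DESeq2 called 1 higher and 1 lower. In cKO total 1 all 3 Ifng and all 12 Il12rb2 UMIs of the Il4+ cells lay in Zbtb16-positive cells, and in cKO total 2 it was 16 of 36 and 15 of 23. Of 2 tested Th17 genes Rora was higher. Hdc, the tested gene of the basophil and mast cell list, was at 13.9 and 11.1 CPM against 2.37 and 1.17 CPM.

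CD8 T cells of the same libraries held an Il4 UMI in 0.398% and 2.58% of cKO cells and in 0 and 0.0858% of control cells, at median depths of 7733, 8881, 8304 and 6860 UMIs.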
